A study of Rattus norvegicus with 33 samples.

Results

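The 9 genes described here, members of the machinery that cuts extracellular matrix, were followed through the development of the rat mammary gland: the matrix metalloproteinases Mmp2, Mmp3, Mmp9, Mmp11 and Mmp14, the related membrane protease Adam12, and the tissue inhibitors of metalloproteinases Timp1, Timp2 and Timp3. They were chosen by symbol in the array's annotation, and each was represented by 1 probe set that names 1 gene only. They make up 9 of 18166 genes with such a probe set, and all 9 were among the 10986 genes that passed the filter on low values (a log2 value above 7.645 in at least 3 arrays). The margin differed between members. Mmp2, Mmp14, Timp1, Timp2 and Timp3 were above 7.645 in all 33 arrays, Adam12 in 30 and Mmp11 in 21, whereas Mmp3 and Mmp9 were above it in 5 arrays each, so that differences of these 2 genes can be understated. All 5 of the Mmp9 arrays were prepubertal, so Mmp9 passed the filter through the stage where it was high.

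RNA came from the fifth caudal mammary glands, left and right, of female Sprague-Dawley rats, an outbred strain. Every animal was a vehicle control that had been gavaged with olive oil, and no animal received a test chemical. The stages were prepubertal at postnatal day 21 (n = 10 arrays), peripubertal at day 42 (n = 5), pubertal at day 63 (n = 5), lactation at day 146, which was lactation day 28 (n = 3), and nulliparous and parous adults at day 181 (n = 5 each). The labels call the lactation stage the end of lactation, and lactation and lactating glands mean that stage throughout. The animals of a stage were killed on 1 day, so that day and stage cannot be told apart, and at no set phase of the estrous cycle. Arrays are numbered within a stage in the order of deposition. The series record counts 10 prepubertal animals and the sample notes 5 animals per stage; with fewer than 10 animals the errors given for day 21 would be too small. The labels give 3 batches: batch 1 with 6 prepubertal, 3 peripubertal, 3 pubertal, 3 nulliparous and 3 parous arrays, batch 2 with 4 prepubertal, 2 peripubertal, 2 pubertal and all 3 lactation arrays, and batch 3 with 2 nulliparous and 2 parous arrays. The RNA of batch 3 was extracted with a Zymo kit, which the notes tie to fattier adult glands, and that of the others with a Promega kit. Values are log2 intensities of whole tissue, in which fewer cells of a type and less RNA per cell cannot be told apart. Of the luminal epithelial markers 10 of 10 were tested, with a mean per array of 6.58 to 9.64 at day 21 and at least 9.46 in every array of the later stages.

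Matrix metalloproteinases are made as inactive precursors and cut collagens, laminins and other matrix proteins once their prodomain is removed. Mmp14 sits in the cell membrane and, together with Timp2, activates the precursor of the gelatinase Mmp2; Mmp9 is the other gelatinase, Mmp3 is stromelysin-1, and Mmp11 is stromelysin-3, which is activated inside the cell by furin. The Timps bind active metalloproteinases and block them, and Timp3, which is held in the matrix, also inhibits ADAM proteases. In the mammary gland these enzymes are known for their part in the branching of ducts during puberty and in the remodelling of the gland after weaning.

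Promoter sequences from RefSeq (build GRCr8) were matched for 6 of the 9 genes, Mmp3, Mmp11, Adam12, Timp1, Timp2 and Timp3. The 250 bases before the annotated start were searched on both strands for TGANTCA, the AP-1 motif, for GGGCGG, the GC box, and for TATAAA; the 3 motifs do not overlap in these windows. Of these windows 3 are shown: that of Mmp3, whose motifs differ from those of the other 5, that of Adam12, the gene with the widest span over the stages, and that of Timp1, the 1 gene that rose in lactation. They are Mmp3 (chr8:12925031-12925280, plus strand), Adam12 (chr1:198443681-198443930, minus strand) and Timp1 (chrX:3771123-3771372, minus strand). Each is written from 5′ to 3′ up to the base before the start, with the matched motifs in capitals.
Mmp3: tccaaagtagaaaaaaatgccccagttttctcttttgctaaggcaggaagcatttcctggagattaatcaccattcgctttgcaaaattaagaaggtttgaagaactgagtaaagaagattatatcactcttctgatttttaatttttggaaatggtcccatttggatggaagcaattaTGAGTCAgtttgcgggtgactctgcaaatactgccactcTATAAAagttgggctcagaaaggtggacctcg
Adam12: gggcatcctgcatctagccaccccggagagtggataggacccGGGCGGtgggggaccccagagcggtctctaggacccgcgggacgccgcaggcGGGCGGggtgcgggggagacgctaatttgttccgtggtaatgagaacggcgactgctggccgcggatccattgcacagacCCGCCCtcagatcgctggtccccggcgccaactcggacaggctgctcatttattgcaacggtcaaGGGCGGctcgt
Timp1: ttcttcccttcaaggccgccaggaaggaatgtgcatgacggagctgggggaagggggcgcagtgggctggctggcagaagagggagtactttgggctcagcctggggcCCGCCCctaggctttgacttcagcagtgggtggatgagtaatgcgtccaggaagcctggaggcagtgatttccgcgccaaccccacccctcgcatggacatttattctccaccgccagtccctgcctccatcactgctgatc
The Mmp3 window held 1 TGANTCA match, beginning 71 bases before the start, and 1 TATAAA match, beginning 32 bases before it, and no GGGCGG. In the other 5 windows neither TGANTCA nor TATAAA was present, and each held GGGCGG: 4 times in Adam12, 3 times in Mmp11 and in Timp3, and 1 time in Timp1 and in Timp2. Of all 33469 promoter windows in the table, 6.3% held TGANTCA, 12.9% TATAAA and 30.5% GGGCGG. The bases G and C made up 38.8% of the Mmp3 window and 61.2% to 72% of the other 5, beside a median of 51.2% over all windows. A match is a run of letters and says nothing of a factor's binding.

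**Figure D1:**
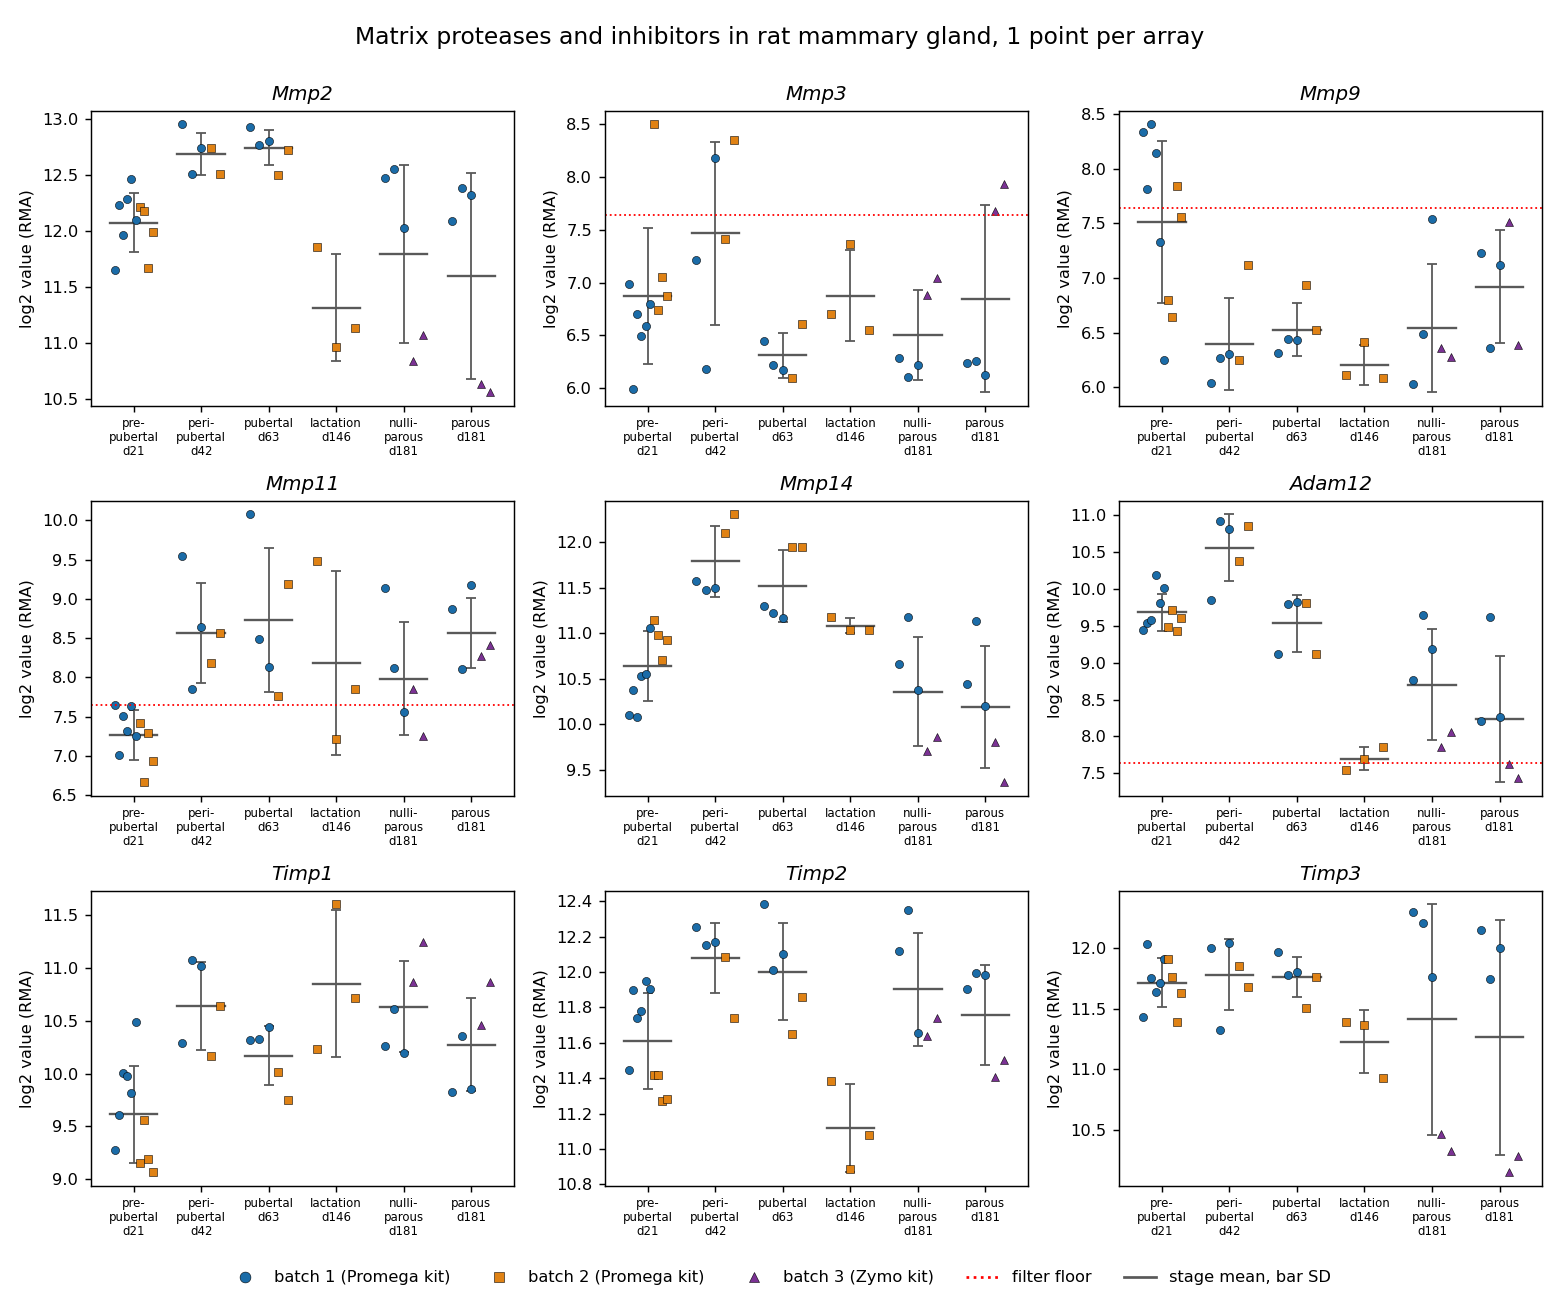
Log2 value of each of the 9 genes (vertical axis) by stage (horizontal axis, postnatal day under each name); a point is 1 array, coloured and shaped by batch, the line is the stage mean and the bar its SD, and the dotted red line marks the floor of 7.645. Adam12 is highest at day 42 and lies between 7.54 and 7.86 in the 3 lactation arrays, and the batch 3 arrays of Mmp2 and Timp3 lie below all batch 1 arrays.

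The 9 genes divided by stage as follows, in a linear model with terms for stage and batch. In limma's moderated F test 9 of 9 differed between the 6 stages at an adjusted p under 0.05, beside 65.9% of all genes tested. From day 21 to day 42, 7 of 9 changed, beside 32.3% of all genes: 6 rose (all genes, 17.1%) and 1 fell (15.2%). The 1 that fell, Mmp9, entered the genes tested through its day 21 arrays alone, and its call in this comparison and in the F test is not counted as support. Their median log2 difference was 0.62, against about 0 for all genes (-9.6e-05). From day 42 to day 63, 1 of 9 changed, beside 1.22%. Between pubertal glands and nulliparous adult glands 0 of 9 changed in limma's test, beside 4.27%, and 2 had an unadjusted p under 0.05. Between pubertal and lactating glands 6 of 9 changed, beside 40.7%: 5 fell (all genes, 16.9%) and 1 rose (23.8%), with a median of -0.48 against 0.06 for all genes. From lactation to the parous gland 5 of 9 changed, beside 32.9%: 4 rose (12.1%) and 1 fell (20.7%), with a median of 0.42 against -0.061. Between parous and nulliparous glands of the same age 0 of 9 changed in limma's test and 0 had an unadjusted p under 0.05, beside 0.0182% (2 genes) of all genes. These comparisons share groups and so overlap in the arrays they use, and the p-values rest on the spread between arrays within stages.

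**Figure D2:**
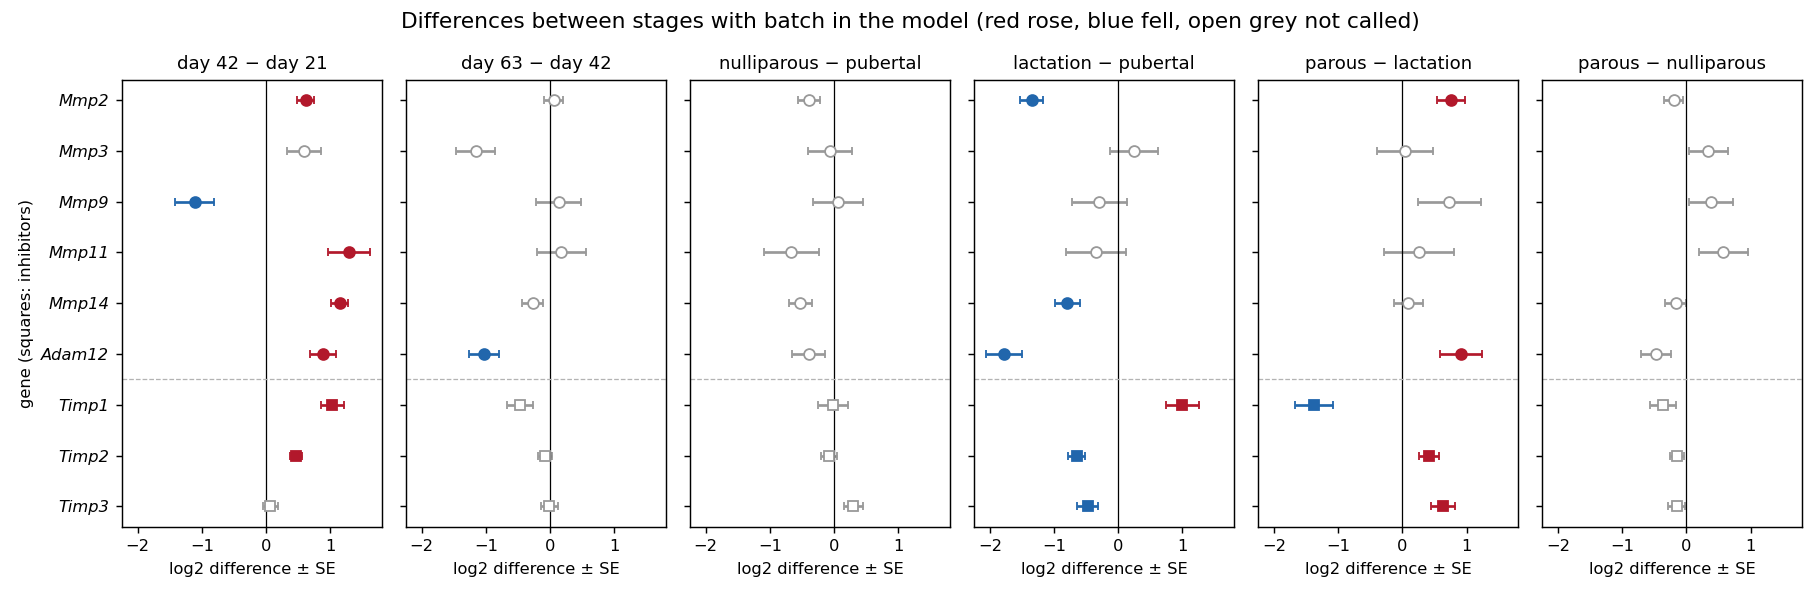
Log2 difference (horizontal axis) with its SE for each gene (vertical axis, circles proteases and squares inhibitors) in 6 comparisons of stages, from the model with batch; filled red points rose, filled blue points fell and open grey points did not pass an adjusted p under 0.05. Timp1 is the 1 filled point on the right for lactation against pubertal glands and the 1 on the left for parous against lactating glands.

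Mmp2 (gelatinase A, probe set 17731914) was above the floor in all arrays and had its lowest stage level in lactation. Over the 10 day 21 arrays it ran from 11.65 to 12.47 with a median of 12.14. The 5 day 42 arrays stood at 12.96, 12.51, 12.75, 12.74 and 12.51, and every one of them lay above every day 21 array, in both batches. Mmp2 rose by 0.62 ± 0.13 (SE) on the log2 scale, 1.53-fold (adjusted p = 5.45e-04); in batch 1 alone the difference was 0.62 (adjusted p = 0.0402), in batch 2 alone 0.62 (adjusted p = 0.0915), and without a batch term 0.62 (adjusted p = 0.163). At day 63 the arrays read 12.93, 12.77, 12.81, 12.50 and 12.72, and the difference from day 42 was 0.05 ± 0.15 (SE) (adjusted p = 0.904). The 3 lactation arrays, at 11.86, 10.96 and 11.13, all lay below the 5 pubertal ones. Mmp2 fell by 1.35 ± 0.18 (SE), 2.55-fold (adjusted p = 1.48e-06), and in the arrays of batch 2 alone the difference was -1.29 (adjusted p = 0.0143). Nulliparous arrays read 12.47, 12.56 and 12.03 in batch 1 and 10.84 and 11.07 in batch 3, and parous arrays 12.09, 12.39 and 12.32 in batch 1 and 10.63 and 10.56 in batch 3. Within each adult group the batches did not overlap. With the batch terms, Mmp2 rose from lactation to the parous gland by 0.76 ± 0.21 (SE) (adjusted p = 0.00672). No batch holds both groups. The call was lost without a batch term, at 0.28 (adjusted p = 0.586), and, with the batch terms, without lactation array 2, at 0.58 (adjusted p = 0.0519).

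Mmp14 (membrane type 1 metalloproteinase, probe set 17698634), the activator of Mmp2, showed the smallest adjusted p of the 9 genes at day 42. Its day 21 arrays ran from 10.08 to 11.14 with a median of 10.63. The day 42 arrays read 11.57, 11.48 and 11.49 in batch 1 and 12.10 and 12.31 in batch 2, all above all day 21 arrays. Mmp14 rose by 1.14 ± 0.14 (SE), 2.21-fold (adjusted p = 6.40e-07). The pubertal arrays read 11.30, 11.22 and 11.16 in batch 1 and 11.95 and 11.95 in batch 2, below the day 42 arrays within each batch, but the difference of -0.27 ± 0.16 (SE) did not pass (adjusted p = 0.447). In lactation the arrays read 11.18, 11.03 and 11.04. They overlapped the batch 1 pubertal arrays and lay below both pubertal arrays of batch 2, which is the batch they share. Mmp14 fell by 0.79 ± 0.20 (SE), 1.73-fold (adjusted p = 0.00209), and without the batch term the difference was -0.43 (adjusted p = 0.421). The nulliparous arrays read 10.66, 11.18 and 10.38 in batch 1 and 9.71 and 9.86 in batch 3. They differed from pubertal arrays by -0.53 ± 0.18 (SE) (adjusted p = 0.0966), a difference that passed without nulliparous array 2 at -0.68 (adjusted p = 0.0478) and without parous array 2 at -0.58 (adjusted p = 0.0373). With each array left out in turn, its adjusted p reached 0.321 at the other end. Parous arrays read 10.44, 11.13 and 10.21 in batch 1 and 9.81 and 9.37 in batch 3, and differed from lactation by 0.09 ± 0.23 (SE) (adjusted p = 0.774) with the batch terms and by -0.89 (adjusted p = 0.041) without them, the opposite direction.

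Mmp9 (gelatinase B, probe set 17768956), which neutrophils and macrophages are known to release, had its highest values at day 21. The day 21 arrays ran from 6.25 to 8.41 with a median of 7.69, and 5 of the 10 lay above the floor of 7.645. No array of a later stage did: day 42 read 6.04, 6.27, 6.31, 6.25 and 7.12, day 63 6.31, 6.44, 6.44, 6.94 and 6.53 and lactation 6.11, 6.42 and 6.09. The difference from day 21 to day 42 was -1.11 ± 0.30 (SE) (adjusted p = 0.00521), and no fold is given since all day 42 arrays lie below the floor. Because the filter admitted Mmp9 through day 21, the same contrast was read with no filter on low values, where it was -1.11 (adjusted p = 0.00678). The arrays overlap: day 21 array 8 stood at 6.25 and day 42 array 5 at 7.12. In batch 1 alone the difference was -1.51 (adjusted p = 0.0436) and in batch 2 alone -0.52 (adjusted p = 0.506). Lymphocyte markers fell in the same comparison, 8 of 8 T cell and 5 of 5 tested B cell markers, and so did 3 of 5 tested neutrophil markers. The mean per array of the T cell list was 6.58 to 10.19 at day 21 and 6.34 to 7.75 at day 42, that of the B cell list 6.42 to 9.84 and 6.39 to 8.54, and that of the neutrophil list 7.09 to 7.82 and 7.02 to 7.33. Several arrays that stood apart for Mmp9 also stood apart for lymphocyte markers. Day 21 array 8, the lowest for Mmp9, had B cell markers at a mean of 6.42 and T cell markers at 6.58, whereas the other 9 day 21 arrays had B cell means of 7.96 to 9.84. Day 42 array 5 had a B cell mean of 8.54 against 6.39 to 6.68 in the other 4, and nulliparous array 3, where Mmp9 reached 7.54, had 9.90 against 6.39 to 6.72. The part of these cells in the Mmp9 difference was not tested. Parous arrays read 7.23, 6.36, 7.12, 7.51 and 6.39, nulliparous arrays 6.04, 6.49, 7.54, 6.36 and 6.28, and their difference was 0.38 ± 0.35 (SE) (adjusted p = 0.873).

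Mmp3 (stromelysin-1, probe set 17841872) was above the floor in 1 day 21 array, 2 day 42 arrays and 2 parous arrays, and below it in all others. Day 21 ran from 5.99 to 8.50 with a median of 6.77. Day 42 read 7.21, 6.18, 8.18, 7.41 and 8.35 and day 63 6.44, 6.22, 6.17, 6.10 and 6.61. The day 42 difference of 0.59 ± 0.26 (SE) did not pass (adjusted p = 0.0877). It passed without day 21 array 4, at 0.75 (adjusted p = 0.0123), and without day 42 array 2, at 0.87 (adjusted p = 0.0119). With each array left out in turn, its adjusted p reached 0.352 at the other end. The difference from day 42 to day 63, -1.16 ± 0.31 (SE), did not pass (adjusted p = 0.0543). The batch 2 arrays of day 63 lay below those of day 42 and the batch 1 arrays overlapped. With each array left out in turn, the adjusted p of this difference ran from 0.0199 to 0.194. It passed without prepubertal array 2 (adjusted p = 0.0484), without prepubertal array 4 (adjusted p = 0.0209), without peripubertal array 1 (adjusted p = 0.0428), without peripubertal array 2 (adjusted p = 0.0199), without pubertal array 1 (adjusted p = 0.0435) and without lactation array 2 (adjusted p = 0.046). Lactation arrays read 6.71, 7.37 and 6.55. Parous arrays read 6.23, 6.25 and 6.12 in batch 1 and 7.68 and 7.94 in batch 3, and nulliparous arrays 6.28, 6.10 and 6.21 in batch 1 and 6.88 and 7.04 in batch 3, so that within both groups all batch 3 arrays were above all batch 1 arrays.

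Mmp11 (stromelysin-3, probe set 17754561), a protease of connective tissue cells, was low before puberty and variable afterwards. Day 21 arrays ran from 6.66 to 7.65 with a median of 7.30. At day 42 the arrays read 9.55, 7.86, 8.65, 8.19 and 8.57, all above all day 21 arrays in both batches. Mmp11 rose by 1.29 ± 0.33 (SE), 2.45-fold (adjusted p = 0.00333). Furin, the protease that activates it, rose by 0.87 ± 0.11 (SE) in the same comparison. Day 63 read 10.08, 8.48, 8.14, 7.76 and 9.20, lactation 9.48, 7.21 and 7.86, nulliparous glands 9.14, 8.12, 7.56, 7.86 and 7.25 and parous glands 8.87, 8.10, 9.17, 8.27 and 8.41. After day 42 the stages overlapped. No other comparison of the 6 passed for Mmp11: its SE was 0.38 to 0.54 in those, and lactation array 1 stood at 9.48 against 7.21 and 7.86.

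Adam12 (probe set 17637856), a membrane metalloprotease known to shed growth factor precursors, had the widest span of the 9 genes. Its fitted level (the model's value for a stage in batch 1) ran from 10.61 at day 42 to 7.80 in lactation, a log2 span of 2.80 (6.99-fold). Day 21 arrays ran from 9.43 to 10.19 with a median of 9.60, and day 42 arrays read 9.85, 10.92, 10.81, 10.38 and 10.86. All but array 1 of day 42 lay above every day 21 array. That array also had the highest mean of skeletal muscle markers of day 42, 10.01. Day 42 array 4 had a muscle marker mean of 9.67, with Adam12 at 10.38. The part of muscle in these values was not tested. Adam12 rose by 0.88 ± 0.20 (SE), 1.84-fold (adjusted p = 0.00117), with 0.76 (adjusted p = 0.063) in batch 1 alone and 1.06 (adjusted p = 0.0182) in batch 2 alone. Adam12 was the 1 member to change from day 42 to day 63. The day 63 arrays, at 9.12, 9.80, 9.83, 9.82 and 9.12, lay below all day 42 arrays, in both batches. The fall was 1.03 ± 0.23 (SE), 2.04-fold (adjusted p = 0.0203), and the call was lost without peripubertal array 2 (adjusted p = 0.0659), without peripubertal array 3 (adjusted p = 0.0678), without peripubertal array 5 (adjusted p = 0.097), without pubertal array 3 (adjusted p = 0.0512) and without pubertal array 5 (adjusted p = 0.0738). It was also lost in batch 1 alone, at -0.95 (adjusted p = 0.388), and in batch 2 alone, at -1.15 (adjusted p = 0.226). In lactation Adam12 stood at 7.54, 7.69 and 7.86, below every pubertal array, and it fell by 1.78 ± 0.28 (SE), 3.42-fold (adjusted p = 1.43e-05). The difference within batch 2 was -1.77 (adjusted p = 0.00355). Nulliparous arrays read 8.76, 9.65, 9.19, 7.86 and 8.06 and parous arrays 8.21, 9.62, 8.27, 7.63 and 7.44, the last 2 of each from batch 3. Adam12 rose from lactation to the parous gland by 0.91 ± 0.33 (SE) (adjusted p = 0.0323), a call lost without lactation array 1 (adjusted p = 0.0787), without lactation array 2 (adjusted p = 0.0655) and without parous array 2 (adjusted p = 0.131). Without parous array 2 the difference was 0.58, and without a batch term it was 0.54 (adjusted p = 0.276). Parous array 2 stood at 9.62 against 8.21 and 8.27 in the other 2 of its batch.

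Timp1 (probe set 17875665), a secreted inhibitor that many cells make in response to inflammation and tissue injury, rose in lactation, where 5 of the other 8 genes fell. Day 21 arrays ran from 9.07 to 10.49 with a median of 9.58. Day 42 arrays read 10.29, 11.08 and 11.02 in batch 1 and 10.17 and 10.64 in batch 2, above all day 21 arrays of batch 2 and overlapping those of batch 1. Timp1 rose by 1.03 ± 0.18 (SE), 2.04-fold (adjusted p = 7.71e-05). The pubertal arrays read 10.32, 10.33 and 10.44 in batch 1 and 10.01 and 9.75 in batch 2, and the difference from day 42, -0.47 ± 0.21 (SE), did not pass (adjusted p = 0.278). In lactation the arrays stood at 10.24, 11.60 and 10.72, above both pubertal arrays of batch 2 and overlapping those of batch 1. Timp1 rose by 1.00 ± 0.26 (SE), 2-fold (adjusted p = 0.00258), but the call was lost without lactation array 2, at 0.62 (adjusted p = 0.0571), within batch 2 alone, at 0.97 (adjusted p = 0.0947), and without the batch term, at 0.68 (adjusted p = 0.151). Parous arrays read 9.82, 10.36 and 9.86 in batch 1 and 10.46 and 10.87 in batch 3. From lactation to the parous gland Timp1 fell by 1.38 ± 0.29 (SE), 2.6-fold (adjusted p = 6.83e-04); without the batch terms the difference was -0.58 (adjusted p = 0.172). Nulliparous arrays read 10.26, 10.61, 10.20, 10.87 and 11.24, and parous arrays differed from them by -0.36 ± 0.21 (SE) (adjusted p = 0.845).

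Timp2 (probe set 17663810), which takes part with Mmp14 in the activation of Mmp2 and also inhibits both, rose and fell in the same 3 comparisons as Mmp2. Day 21 arrays ran from 11.27 to 11.95 with a median of 11.59. The day 42 arrays read 12.25, 12.15 and 12.17 in batch 1 and 12.09 and 11.74 in batch 2, above all day 21 arrays of the same batch. Timp2 rose by 0.47 ± 0.09 (SE), 1.38-fold (adjusted p = 3.72e-04), with 0.41 (adjusted p = 0.0368) in batch 1 alone and 0.57 (adjusted p = 0.0506) in batch 2 alone. It read 12.38, 12.01, 12.10, 11.65 and 11.86 at day 63 and 11.38, 10.89 and 11.08 in lactation, with all lactation arrays below all pubertal ones. The fall was 0.65 ± 0.13 (SE), 1.57-fold (adjusted p = 3.35e-04). Parous arrays, at 11.91, 11.99, 11.98, 11.40 and 11.50, lay above all lactation arrays, and Timp2 rose by 0.42 ± 0.15 (SE) (adjusted p = 0.0369), close to the threshold: the call was lost without peripubertal array 4 (adjusted p = 0.0582), without pubertal array 5 (adjusted p = 0.0518), without lactation array 2 (adjusted p = 0.172), without lactation array 3 (adjusted p = 0.0819), without parous array 1 (adjusted p = 0.0539), without parous array 2 (adjusted p = 0.066) and without parous array 3 (adjusted p = 0.071). Nulliparous arrays read 12.12, 12.35, 11.66, 11.64 and 11.74.

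Timp3 (probe set 17834517), the matrix-bound inhibitor, passed in neither step from day 21 to day 63. Day 21 arrays ran from 11.39 to 12.03 with a median of 11.73, day 42 arrays read 12.004, 11.33, 12.04, 11.85 and 11.68 and day 63 arrays 11.97, 11.78, 11.80, 11.50 and 11.76. The differences were 0.06 ± 0.12 (SE) (adjusted p = 0.718) and -0.02 ± 0.13 (SE) (adjusted p = 0.967). Lactation arrays read 11.39, 11.36 and 10.93, all below all pubertal arrays, and Timp3 fell by 0.48 ± 0.16 (SE), 1.39-fold (adjusted p = 0.0207). The call was lost without lactation array 3, at -0.33 (adjusted p = 0.157), within batch 2 alone, at -0.40 (adjusted p = 0.136), and with the arrays centred on their medians, at -0.38 (adjusted p = 0.0605). Adult values divided by batch: nulliparous arrays read 12.30, 12.21 and 11.76 in batch 1 and 10.47 and 10.32 in batch 3, and parous arrays 12.15, 11.75 and 11.998 in batch 1 and 10.15 and 10.28 in batch 3. With the batch terms Timp3 rose from lactation to the parous gland by 0.63 ± 0.19 (SE) (adjusted p = 0.0114), whereas the difference without a batch term was 0.04 (adjusted p = 0.951), and the call was lost without lactation array 3 at 0.48 (adjusted p = 0.0726).

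Parous and nulliparous glands, both of day 181, gave no call for any of the 9 genes in limma's test. The log2 differences of parous minus nulliparous ran from -0.47 ± 0.23 (SE) for Adam12 to 0.58 ± 0.38 (SE) for Mmp11, with adjusted p of 0.82 and 0.848. A p that misses the threshold does not show that the 2 groups were alike. In batch 1 all 9 genes overlapped between the 2 groups. In batch 3, parous arrays lay above nulliparous ones for Mmp3, Mmp9 and Mmp11 and below them for Mmp2, Adam12, Timp2 and Timp3. Mmp14 and Timp1 overlapped there. Batch 3 holds only 2 arrays of each group, and 2 against 2 separate easily. The share of all genes that separate there was not counted, so no difference between the groups is read from it.

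With the stages ordered by their fitted level, each gene gave 5 pairs of neighbouring stages, and 4 of these 45 pairs passed. The order came from these same levels, so neighbours are the stages that differ least. The share of all genes passing was not counted, and nothing about these genes is read from the number of pairs. Mmp2 and Timp3 were both lower in lactation than in their next stage, the prepubertal one, by 0.68 and 0.43 (adjusted p = 0.00115 and 0.0161). The other 2 pairs were those of Adam12 at day 42 over day 21 and in parous over lactating glands. No other neighbours passed. Mmp14 at day 42 (11.55) and day 63 (11.28) did not (adjusted p = 0.447 in limma's test), although its arrays of the 2 stages did not overlap within either batch. Mmp2 was highest at day 63, at 12.80, and Mmp14, Timp2, Mmp3 and Adam12 at day 42; Timp1 was highest in lactation, at 11.38, Mmp9 at day 21, Mmp11 at day 63 and Timp3 in nulliparous glands. Over the 9 further pairs of stages, day 63 against day 21 gave 6 of 9 genes called beside 37.9% of all genes, lactation against day 21 6 beside 56%, and lactation against day 42 5 beside 43.1%. Nulliparous glands gave 5 against lactation beside 34.9%, 3 against day 42 beside 6.12% and 3 against day 21 beside 29.2%. Parous glands gave 3 against day 63 beside 6.83%, 4 against day 42 beside 10.5% and 2 against day 21 beside 27.8%. Mmp9 is 1 of the genes called against day 21 at day 63, in lactation and in nulliparous glands, with the limit of the filter given above.

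Several of these further pairs set adult glands against day 42, the stage of the highest Mmp14 and Adam12. Mmp14 was lower in nulliparous glands than at day 42 by 0.80 ± 0.18 (SE) (adjusted p = 0.00524) and lower in parous glands by 0.97 ± 0.18 (SE) (adjusted p = 4.79e-04). Adam12 was lower by 1.43 ± 0.26 (SE) (adjusted p = 6.22e-04) and 1.90 ± 0.26 (SE) (adjusted p = 8.53e-06) in the same pairs. In parous glands, but not called in nulliparous ones, Mmp2 and Timp1 were also lower than at day 42. In nulliparous glands, but not called in parous ones, Mmp3 was lower than at day 42, by 1.22. Mmp3 was above the floor in 2 of 5 day 42 arrays and in 0 of 5 nulliparous arrays, so its call rests mostly on values below the floor. None of Mmp2, Timp1 and Mmp3 was called between the adult groups. Mmp11 and Timp1 were higher in lactation than at day 21, by 1.12 ± 0.43 (SE) (adjusted p = 0.028) and 1.56 ± 0.23 (SE) (adjusted p = 2.11e-06), while Adam12 was lower by 1.92 ± 0.26 (SE) (adjusted p = 3.79e-07).

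Differences of a protease and an inhibitor within each array were described for 4 pairs, without a test, and show only how the pair changed between stages, since levels of different probe sets cannot be set against each other. Mmp14 minus Timp2 was -0.96 ± 0.53 (SD, n = 10) at day 21 and -0.29 ± 0.56 (SD, n = 5) at day 42. With the batch terms the pair changed by 0.67, Mmp14 having risen more than Timp2. The arrays of the 2 stages overlapped across batches, but within each batch all day 42 arrays lay above all day 21 arrays. Mmp2 minus Timp2 changed by -0.70 from pubertal to lactating glands, and all 3 lactation arrays lay below all 5 pubertal ones. Mmp9 minus Timp1 changed by -2.14 from day 21 to day 42, where Mmp9 was lower and Timp1 rose, by -1.29 from pubertal to lactating glands, where its arrays did not overlap, and by 2.11 from lactation to the parous gland. Mmp3 minus Timp1 changed by -0.76 and 1.41 in the last 2 of these comparisons, with overlapping arrays in both. In these 2 comparisons Timp1 changed by 1.00 and -1.38, Mmp9 by -0.30 and 0.73 and Mmp3 by 0.24 and 0.04, so Timp1 made the larger part. Mmp9 was above the floor in 0 arrays after day 21, and Mmp3 in 0 pubertal, 0 lactation and 2 parous arrays. Changes of these 2 proteases can be understated, and the Mmp9 call at day 42 is not counted as support.

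**Figure D3:**
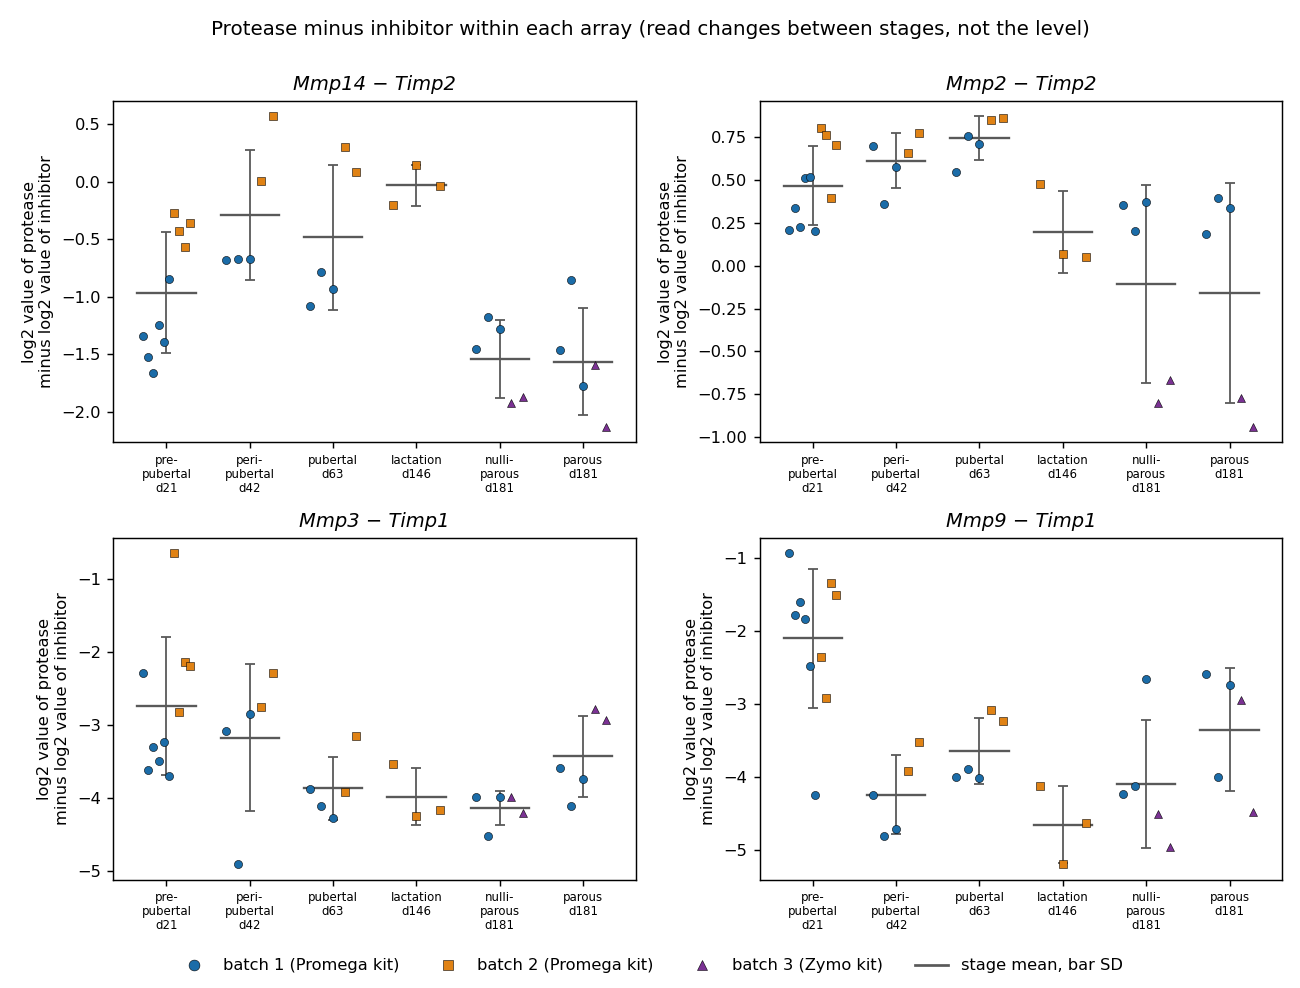
Log2 value of a protease minus that of an inhibitor within each array (vertical axis) by stage (horizontal axis) for 4 pairs; points are arrays coloured and shaped by batch, lines stage means and bars SDs. Mmp9 minus Timp1 has its highest mean at day 21, -2.10 ± 0.95 (SD, n = 10), and its lowest in lactation, -4.65 ± 0.53 (SD, n = 3). Mmp9 lies below the floor in all arrays after day 21.

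Batch terms were as large as stage differences for several of these genes. At equal stage, batch 3 differed from batch 1 for 7 of 9 genes, beside 77.4% of all genes tested, and its arrays were the ones extracted with the other kit. The log2 terms were -1.72 ± 0.14 (SE) for Timp3, -1.54 ± 0.15 for Mmp2, -1.20 ± 0.23 for Adam12, -0.98 ± 0.16 for Mmp14 and -0.43 ± 0.11 for Timp2. Mmp3, at 1.18 ± 0.31, and Timp1, at 0.67 ± 0.21, were higher in batch 3. Batch 2 differed from batch 1 for 4 of 9 genes, beside 56.6%: Mmp14 by 0.60 ± 0.12, Mmp3 by 0.54 ± 0.22, Timp1 by -0.53 ± 0.15 and Timp2 by -0.39 ± 0.08. Mmp9 and Mmp11 passed for neither batch. Batch 3 holds adult glands only and lactation lies in batch 2 only, so values of lactation against adult glands pass through the batch terms; without a batch term 1 of the 5 calls for parous against lactating glands was kept, that of Timp2, and Mmp14 passed in the opposite direction, at -0.89. In the same fit 3 of 9 genes passed for lactating against pubertal glands, in place of 6 (Mmp14, Timp1 and Timp3 did not pass).

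**Figure D4:**
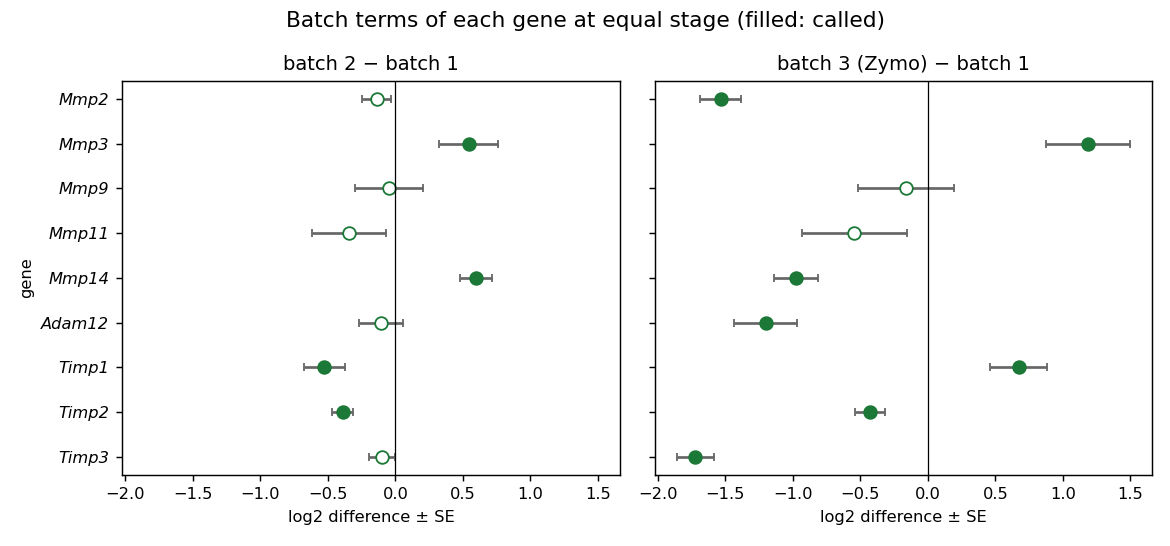
Log2 difference between batches at equal stage (horizontal axis) with its SE for each gene (vertical axis), batch 2 against batch 1 on the left and batch 3 against batch 1 on the right; filled points passed an adjusted p under 0.05. In batch 3 the terms of Mmp2 and Timp3 are the farthest below 0 and that of Mmp3 the farthest above it.

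Other proteases and inhibitors of the matrix were counted by lists of related genes, beside the shares of all genes given above for each comparison. Of 8 other matrix metalloproteinases tested, 4 rose and 2 fell at day 42, and 2 rose and 5 fell in lactation against pubertal glands. Mmp12, the metalloelastase of macrophages, rose by 2.22 ± 0.19 (SE) at day 42 and by 2.57 ± 0.27 in lactation, and fell by 1.35 ± 0.31 from lactation to the parous gland. Among other members of the ADAM family 1 of 7 rose and 2 fell at day 42, and 3 of 7 rose and 4 fell in lactation. Adam17, which releases membrane-bound growth factors, rose by 1.18 ± 0.14 in lactation and fell by 1.35 ± 0.16 afterwards, the opposite of Adam12 in both comparisons, and Adam23 fell by 2.10 ± 0.20 and rose by 1.68 ± 0.23. Of the ADAMTS proteases, which are secreted, 5 of 13 rose and 0 fell at day 42 and 1 of 13 rose and 9 fell in lactation, where Adamts12 fell by 2.37 ± 0.21. In the plasminogen system 2 of 5 rose and 0 fell at day 42 and 2 of 5 rose and 3 fell in lactation; Plg, the plasminogen gene, rose by 1.18 ± 0.19 and then fell by 1.80 ± 0.27.

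Among cathepsins, the lysosomal proteases, 7 of 9 rose and 0 fell at day 42 and 2 of 9 rose and 2 fell in lactation. Ctsk, a collagen-degrading cathepsin, rose by 1.14 ± 0.17 at day 42 and fell by 2.42 ± 0.25 in lactation, whereas Ctsd, cathepsin D, rose by 0.65 ± 0.09 and again by 0.94 ± 0.13. Of other inhibitors and regulators 4 of 13 rose and 2 fell at day 42. Timp4, the remaining Timp, fell by 1.42 ± 0.24 there, unlike Timp1 and Timp2. White adipocyte markers fell for 10 of 10 in the same comparison, and their part in the Timp4 fall was not tested. Reck, a membrane-anchored inhibitor of metalloproteinases, fell by 1.68 ± 0.20 in lactation and rose by 1.29 ± 0.23 in the parous gland. Of 14 matrix substrates 3 rose at day 42, 4 fell from day 42 to day 63, 9 fell from pubertal to nulliparous glands and 13 fell in lactation, and 10 rose from lactation to the parous gland. Col1a1, a chain of type I collagen, fell by 2.95 ± 0.22 in lactation and rose by 1.497 ± 0.25 in the parous gland, and Eln, elastin, fell by 1.35 ± 0.16 from pubertal to nulliparous glands, where 0 of the 9 genes passed.

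Markers of the tissue's cell types changed in the same comparisons. At day 42, where 6 of the 9 genes rose, fibroblast markers rose for 4 and fell for 0 of 10, with a mean per array of 10.85 to 11.63 at day 21 and 11.59 to 12.01 at day 42, and basal and myoepithelial markers rose for 3 and fell for 0 of 6 tested, with means of 8.05 to 9.50 and 9.36 to 9.86. Their part in the rises was not tested. Fibroblast markers fell for 10 of 10 in lactation against pubertal glands and rose for 9 of 10 in parous against lactating glands. Their mean per array was 11.46 to 11.75 in pubertal, 9.67 to 10.24 in lactating and 10.08 to 11.23 in parous glands. Col1a1, Col1a2, Col3a1 and Dcn belong to this list and to the matrix substrates, so the counts of these lists overlap. Luminal epithelial markers rose for 10 of 10 at day 42 and for 6 of 10 in lactation, when their mean per array was 10.59 to 11.30, and white adipocyte markers fell for 8 of 10 in lactation. The part of these cell types in the falls of Mmp2, Mmp14, Adam12, Timp2 and Timp3 in lactation was not tested. Macrophage markers rose for 1 and fell for 1 of 10 at day 42, and rose for 1 and fell for 2 in lactation. Skeletal muscle markers, of which 7 of 12 were tested, had a mean per array above 8 in 7 arrays of the 33: prepubertal 7 and 10, peripubertal 1 and 4, lactation 1 and 3 and nulliparous 5. A fit without these 7 arrays was chosen after seeing the data. It leaves 1 lactation array, which is assumed to vary like the other groups. In that fit Mmp9 differed by -0.97 at day 42. Timp3 differed by -0.34 in lactation against pubertal glands. In parous against lactating glands Timp3 differed by 0.475 and Adam12 by 0.90. None of these differences kept its call. The share of all genes called in that fit was not counted, and fewer arrays make any call harder. Nothing about muscle is read from the lost calls.

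The genes whose pattern was most like each member's were found by Pearson's r over the 33 arrays, with the batch terms removed and stage differences kept. The arrays share stages, so r describes the pattern over these arrays only. Mmp2 was most like Timp2 (r = 0.915) and Olfml1 (r = 0.910), and Timp2 most like Mmp2 and Igfbp6 (r = 0.890). Mmp2 and Timp2 were the 1 pair of members that stood first for each other. Adam12 was most like Fkbp10 (r = 0.955), a collagen chaperone, and Cdh11 (r = 0.937), a mesenchymal cadherin. Mmp14 was most like Gja1 (r = 0.894), a gap junction protein, and Fgfr2 (r = 0.888), a fibroblast growth factor receptor. Mmp9 was most like Lhx8 (r = 0.967) and Capn13 (r = 0.963), Mmp11 like Kif13b (r = 0.821) and Plxdc2 (r = 0.806), Timp1 like Rexo2 (r = 0.900) and Cldn6 (r = 0.897), and Timp3 like Gpx3 (r = 0.865) and Tgfbr3 (r = 0.860). Mmp3 had no close counterpart, the nearest being Smim38 (r = 0.662) and Rif1 (r = 0.601).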

How the data were processed

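Values are the log2 expression values the authors deposited for 33 Affymetrix arrays, made with RMA (background correction, quantile normalization, summary per probe set) in Affymetrix Expression Console, per the submitters' processing notes; no source used here gives a version. Of 36685 probe sets 18511 name 1 gene; of several for a gene, the one of highest mean was kept. Genes above 7.645 (the median over these probe sets) in at least 3 arrays were tested with limma 3.58.1 (R 4.3.3), with terms for stage and batch over all arrays, eBayes with a mean trend and Benjamini-Hochberg adjustment over 10986 genes. A call is an adjusted p under 0.05. Nothing says how far arrays of a stage share tissue, so p-values measure the spread between these arrays, whose number limits the precision. Named were the 9 members, the 2 genes most like each, and at most the 2 called genes of smallest adjusted p per related list and comparison. Members and lists were chosen with earlier results of these data known. The scripts were tested on simulated data. No 2 arrays were identical (0 pairs). Alternatives covered the batch term, normalization, filter, weights, arrays fitted and each array left out.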

Additional observations from a re-analysis of the deposited data

Results flagged for a closer look

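Among the 45 groups of 4 to 10 arrays that were examined (9 genes in 5 stages), 2 held an array far from the others, and chance flags about 1 in 20 groups. Mmp3 stood at 8.501 in prepubertal array 4, against 5.992 to 7.056 in the other 9 prepubertal arrays. Mmp9 stood at 7.119 in peripubertal array 5, against 6.038 to 6.307 in the other 4. Both arrays belong to batch 2. Peripubertal array 5 also had the highest B cell marker mean of its stage, and the part of those cells in its Mmp9 value was not tested.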

How the results depend on the processing

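Of 2490 values recomputed under other settings, 2355 kept their direction and their side of the threshold, 55 lost a call, 19 gained one and 61 changed sign; 0 of those 61 were called in the fit reported above. The cause was not tested. Without a batch term 0 genes were called from day 42 to day 63, 1 between nulliparous and pubertal glands (Mmp14, -1.16, adjusted p = 0.022), 3 in lactation against pubertal and 2 in parous against lactating glands (Timp2 kept, Mmp14 turned and passed, Mmp2, Adam12, Timp1 and Timp3 lost). Signs changed for nulliparous against pubertal glands in Mmp3 (0.20), Timp1 (0.46) and Timp3 (-0.35) and for parous against lactating glands in Mmp3 (-0.030) and Mmp14 (-0.89, adjusted p = 0.041). With batch as a random block 2 genes were called from day 42 to day 63 and Timp1 was 0.014 for nulliparous against pubertal glands; with quantile normalization applied again these were 2 and 0.0019, and Mmp3 was -0.013 in parous against lactating glands. With arrays centred on their medians 3 genes passed for parous against lactating glands (Adam12 and Timp2 no longer), Mmp3 was -0.041 there, and 2 neighbouring pairs of stages passed in place of 4. With array weights 3 genes passed from day 42 to day 63, 2 for nulliparous against pubertal glands, 3 for parous against lactating glands (Adam12 and Timp2 no longer) and 8 neighbouring pairs. Array weights also turned Mmp11 from day 42 to day 63 (-0.042) and in lactation (0.062), Mmp9, Timp1 and Timp2 for nulliparous against pubertal glands (-0.038, 0.0097 and 0.071), and Mmp3 and Mmp14 for parous against lactating glands (-0.14 and -0.022), and they made the Mmp3 difference at day 42 1.11 (adjusted p = 6.67e-05). Fits of only the 2 groups compared gave 0 calls from day 42 to day 63 and 0 for parous against lactating glands, where no batch term could be fitted, and Mmp3 was -0.030 and Mmp14 -0.89. Batch 1 alone gave 0 calls from day 42 to day 63, with Timp3 at 0.060. Batch 2 alone gave 4 calls at day 42 and 0 from day 42 to day 63, with Mmp2 at -0.018. Without batch 3, Mmp3 was 0.11 for nulliparous against pubertal and -0.13 for parous against lactating glands.

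Without the 7 arrays rich in muscle markers, a setting chosen after seeing the data, 1 lactation array was left, so only differences are given. Timp1 was then -0.71 from day 42 to day 63, against -0.47 in the fit reported above. Not every gene kept its call in the F test. Signs changed for Timp3 at day 42 (-0.050), for Mmp9, Timp2 and Timp3 from day 42 to day 63 (-0.029, 0.0091 and 0.088), and for Mmp3 in nulliparous against pubertal (0.012) and parous against lactating glands (-0.37). Leaving out each of the 33 arrays in turn gave 7 to 8 calls at day 42, 0 to 2 from day 42 to day 63, 0 to 1 for nulliparous against pubertal, 5 to 6 for lactating against pubertal, 2 to 5 for parous against lactating and 0 to 0 for parous against nulliparous glands. The signs that changed there were those of Mmp2 (-0.0089 to 0.11), Mmp11 (-0.15 to 0.39) and Timp3 (-0.15 to 0.041) from day 42 to day 63; of Mmp3 (-0.17 to 0.047), Mmp9 (-0.28 to 0.26), Timp1 (-0.10 to 0.046) and Timp2 (-0.19 to 0.067) for nulliparous against pubertal glands; of Mmp3 (-0.0029 to 0.40) and Mmp11 (-0.99 to 0.14) for lactating against pubertal glands; and of Mmp3 (-0.16 to 0.28), Mmp11 (-0.23 to 0.90) and Mmp14 (-0.11 to 0.23) for parous against lactating glands. No paired analysis was possible because the replicate numbers follow the order of deposition. Signal limits Mmp3 and Mmp9, each above the floor of 7.645 in 5 of 33 arrays. It also limits Mmp11 at day 21, above the floor in 1 of 10 arrays, and Adam12 in lactation, in 2 of 3.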

Other observations

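Further genes of the related lists changed in the same comparisons. At day 42 Adamts4 and Adamts15, secreted proteases that cut aggrecan and versican, rose by 1.01 ± 0.18 (SE) and 0.77 ± 0.18 on the log2 scale, and Plat, tissue plasminogen activator, rose by 0.56 ± 0.14. Mmp28, the metalloproteinase epilysin, fell by 0.70 ± 0.14 there. Mmp27 fell by 1.95 ± 0.37 in lactation against pubertal glands, Adamts2, which trims procollagen, fell by 1.77 ± 0.20, and Serpine2, an inhibitor of thrombin and plasminogen activators, fell by 0.99 ± 0.18. Sparc, a collagen-binding protein, fell by 1.49 ± 0.09 in the same comparison. From day 42 to day 63 Eln, elastin, and Col5a1, a chain of type V collagen, fell by 0.81 ± 0.14 and 0.65 ± 0.15, and Adamts19 fell by 1.04 ± 0.25. Ctsc, cathepsin C, rose by 0.29 ± 0.07 in that step.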
